A study of Arabidopsis thaliana with 18 samples.

Results

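The chlorophyll synthesis genes described here are 10 nuclear Arabidopsis thaliana genes of the magnesium branch of tetrapyrrole synthesis, chosen by identifier among 27628 genes. They are GUN5 (AT5G13630), GUN4 (AT3G59400), CHLI1 (AT4G18480), CHLI2 (AT5G45930), CHLD (AT1G08520), CHLM (AT4G25080), CRD1 (AT3G56940), PORA (AT5G54190), PORB (AT4G27440) and PORC (AT1G03630). The symbols printed in the authors' deposited table name the same 10 genes. Seedlings of the mutants ceres-1 and ceres-2, both in the Col-0 background, were compared with wild-type Col-0 seedlings. CERES encodes a protein of plants that interacts with eIF4E, the initiation factor that recognises the cap of mRNAs. All seedlings were 9 days old, were grown under control conditions and were harvested 5 h after lights on. Each genotype had 3 libraries of ribosome footprints and 3 of RNA, 18 libraries in all. What kind of mutation each allele carries is not stated in the labels, which also do not say whether replicates stem from separate cultures. The p-values thus measure only the spread between these libraries, which may be technical.

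Every value below is a log2 fold change of a mutant over Col-0 or an adjusted p from the authors' deposited table, or was computed from them. That table holds no value per library, so depth stays unknown and values carry neither an SD nor a standard error. Levels are not given either, so the genes cannot be ranked by abundance and the seedling tissue cannot be checked against markers. A gene is called when its adjusted p, taken over all genes tested in that comparison, is below 0.05. Translational efficiency is footprints relative to RNA, and its size is given as the difference footprint minus RNA of the log2 fold changes. The adjusted p for efficiency is the authors' own. The sources used here do not say how it was obtained, and the deposited efficiency fold changes beside it follow footprints (Pearson r of 0.992 in each mutant) more closely than that difference (0.743 in ceres-1 and 0.685 in ceres-2). Whether that adjusted p tests the difference is therefore unknown. It is not read as such a test here, and the difference is given without one. Both mutants were compared with the same Col-0 libraries, so their values are set side by side and their resemblance is no independent evidence. Whether ceres-2 differed from ceres-1 was not tested. CERES (AT4G23840) itself had RNA log2 fold changes of -4.43 in ceres-1 and -2.92 in ceres-2 by the authors' deposited table (adjusted p-values of 5.62e-08 and 6.19e-05).

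Chlorophyll is built in plastids from protoporphyrin, the last intermediate shared with heme. Magnesium chelatase inserts magnesium, CHLM methylates the product, a cyclase that contains CRD1 closes the fifth ring, and the light-dependent oxidoreductases PORA, PORB and PORC reduce protochlorophyllide to chlorophyllide. Chelatase consists of the porphyrin-binding subunit CHLH, encoded by GUN5, the AAA-ATPase subunit CHLI, encoded by CHLI1 and CHLI2, and CHLD, and is stimulated by the porphyrin-binding protein GUN4. All of these proteins are encoded in the nucleus, translated on cytosolic ribosomes and imported into plastids. Free intermediates of the pathway are phototoxic, and its flux is known to be held under tight control in green seedlings.

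The start of each reading frame is shown for the 10 genes, from the RefSeq transcript with the longest coding sequence in assembly TAIR10.1. Each line reads 5′ to 3′ on the coding strand, with the last 12 bases of the leader and the first 9 of the coding sequence, and the start codon in capitals.
GUN5: agcagccgcaaaATGgcttcg
GUN4: tcctctccatcaATGgcgacc
CHLI1: gctcacacaaaaATGgcgtct
CHLI2: cactcactagcaATGgcgtct
CHLD: ctatctttgaaaATGgcgatg
CHLM: taccgcattaagATGggtccc
CRD1: aactcacagtcaATGgcggct
PORA: ttaaacgaaacaATGgccctt
PORB: cgagtaccaacaATGgccctt
PORC: ttccgtacaacaATGgctctc
All 10 have a G directly after the start codon, as have 58.2% of the 14007 genes tested in ceres-2 footprints whose leader has at least 12 bases. A purine stands 3 bases before the start codon in 8 of the 10, against 74.8% of those genes, and GUN4 and CRD1 are the exceptions. The genes differ more in length. GUN5 has the longest coding sequence of the 10, 4146 bases, and 98.0% of 14327 tested genes with a usable transcript have a shorter one. The coding sequences of the others run from 798 bases in GUN4 to 2283 in CHLD, around a median of 1215 for the tested genes. GUN5 also has the longest leader of the 10, 347 bases with 4 upstream ATG triplets, but only 80.7% of tested genes have a shorter one. The leader of CRD1 has 89 bases and 0 upstream ATG triplets, and 15.7% of tested genes have a shorter one. An ATG lies in the leader of 5 of the 10 genes, against 61.9% of the tested genes. These are descriptions of annotated transcripts, and the transcripts used in these seedlings were not determined.

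RNA of the pathway was not called as changed at any step. All 10 genes had an adjusted p in every comparison, so none was lost to a filter on low values. In RNA the authors' deposited table calls 0 of the 10 in ceres-1, where it calls 0.0249% of 24142 genes, and 0 of the 10 in ceres-2, where it calls 0.137% of 19000. Unadjusted p-values of the authors' DESeq2 test are not given, so these counts cannot be repeated without the adjustment. The adjusted p was 0.9998 for each of the 10 in ceres-1 and 0.9999 in ceres-2, values shared with nearly all genes: 99.9% and 99.4% of those tested for RNA had one above 0.99. A call is therefore rare in RNA, and its absence does not show that a transcript was unchanged.

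RNA log2 fold changes of the 10 genes by the authors' deposited table ran from -0.21 to 0.15 in ceres-1, with a median of 0.062 and 3 below 0. In ceres-2 they ran from -0.29 to 0.36, with a median of -0.019 and 6 below 0. The medians over all genes tested were -0.0041 and -0.0048. The lowest RNA value in each mutant was that of GUN4, at -0.21 in ceres-1 and -0.29 in ceres-2, and the highest was that of PORA, at 0.15 and 0.36, by the authors' deposited table. In ceres-2, 11.4% of the genes tested for RNA lay below GUN4 and 92.9% lay below PORA.

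Footprints were called as changed at 2 genes, both lower and both in ceres-2. GUN5, the large porphyrin-binding subunit of magnesium chelatase, fell by 0.65 on the log2 scale in ceres-2 by the authors' deposited table (with an adjusted p of 5.03e-07). That is 36.2% below Col-0. CRD1, the diiron subunit of the cyclase, fell by 0.35 on the same scale in ceres-2 by the authors' deposited table (with an adjusted p of 0.00385). That is 21.6% below Col-0. Both changes are relative to the other genes measured, so a change shared by all genes would not be seen. The other 8 genes were not called in ceres-2, where the authors' deposited table calls 1.88% of 14453 genes in footprints, 1.15% as lower. In ceres-1 it calls 0 of the 10 and 0.642% of 9967 genes. In seedlings sequenced whole, fewer cells of a type and less RNA or fewer ribosomes per cell cannot be told apart.

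**Figure D1:**
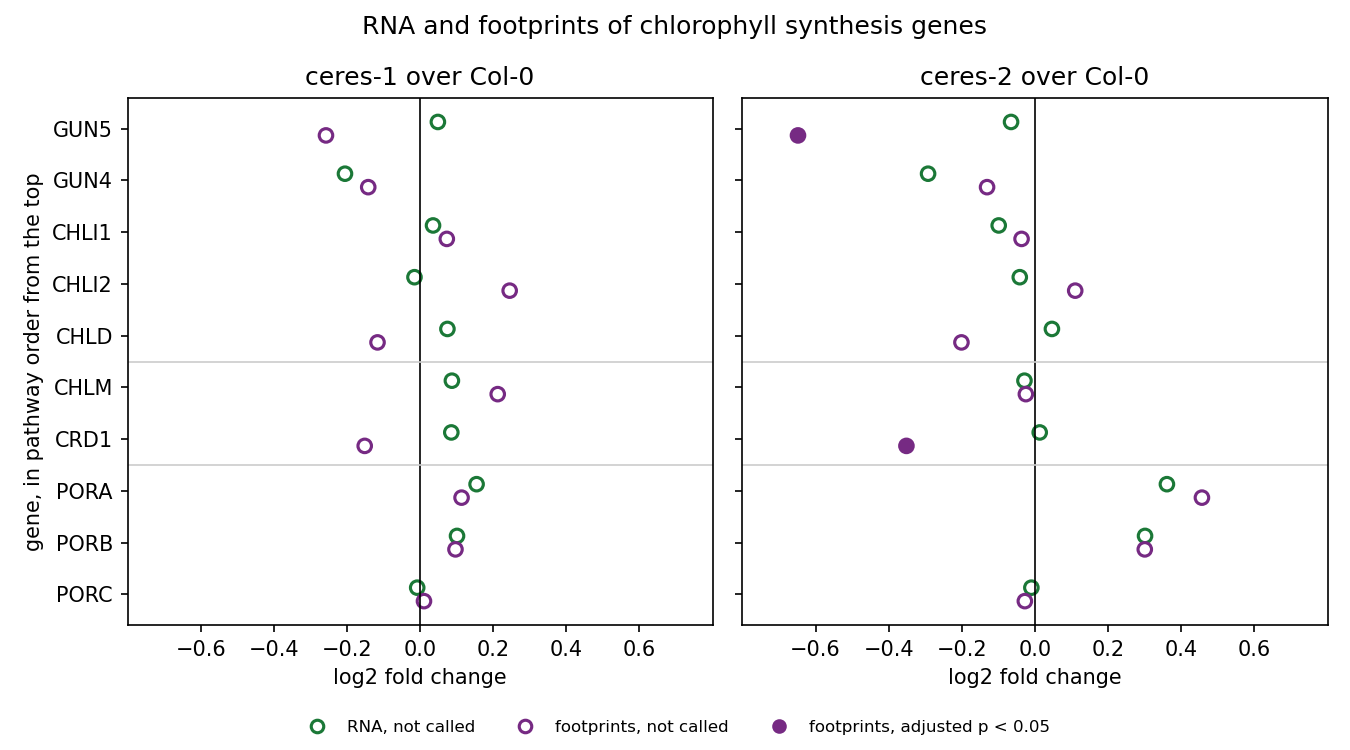
Log2 fold change of RNA (green) and footprints (purple) of the 10 genes in ceres-1 (left) and ceres-2 (right) over Col-0, from the authors' deposited table, in pathway order from the top, with lines between chelatase, the CHLM and CRD1 steps, and the oxidoreductases. Filled points mark adjusted p below 0.05, reached by footprints of GUN5 at -0.65 and CRD1 at -0.35 in ceres-2; no error bars can be drawn because the table holds no value per library.

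Footprint values of the chelatase genes ranged from -0.65 at GUN5 to 0.11 at CHLI2 in ceres-2 by the authors' deposited table, and differences between genes were not tested. In ceres-1 the footprint log2 fold change of GUN5 was -0.26 by the authors' deposited table (with an adjusted p of 0.430), the lowest of the 10 genes in that mutant, as it was in ceres-2. Only 0.934% of the 14453 genes tested in ceres-2 footprints lay below GUN5 there, against 9.54% of the 9967 tested in ceres-1. By the authors' deposited table its RNA stood at 0.049 in ceres-1 and -0.065 in ceres-2, close to 0 in each mutant. CHLD, which forms the ATP-driven motor of the chelatase together with CHLI, was not called, with footprint values of -0.12 in ceres-1 and -0.20 in ceres-2 by the authors' deposited table (adjusted p-values of 0.885 and 0.430). Its RNA was at 0.075 and 0.046 by the authors' deposited table.

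The ATPase subunit genes CHLI1 and CHLI2 lay nearer to 0 or above it. Footprints of CHLI1, the main CHLI gene, were at 0.073 in ceres-1 and -0.037 in ceres-2 by the authors' deposited table, and those of CHLI2 at 0.25 and 0.11 (adjusted p between 0.538 and 0.966 for the pair). CHLI2 had the highest footprint value of the 10 genes in ceres-1, and 90.7% of tested genes lay below it. At GUN4, the activator of the chelatase, the RNA value lay below the footprint value in each mutant. Its footprints were at -0.14 in ceres-1 and -0.13 in ceres-2 by the authors' deposited table (adjusted p-values of 0.818 and 0.799), with RNA at -0.21 and -0.29. Over the 5 genes of this step footprints had a median of -0.12 in ceres-1 and of -0.13 in ceres-2, and the values spanned 0 in each mutant.

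At the next step CHLM, the methyltransferase that acts directly on the product of the chelatase, was not called. Its footprints were at 0.21 in ceres-1 and -0.025 in ceres-2 by the authors' deposited table (adjusted p-values of 0.561 and 0.980), and its RNA at 0.087 and -0.029. CRD1, which acts on the product of CHLM, had RNA at 0.085 in ceres-1 and 0.013 in ceres-2 by the authors' deposited table, near to 0 like that of GUN5. Footprints of CRD1 in ceres-1 were at -0.15 by the authors' deposited table (with an adjusted p of 0.765). Of the 9967 genes tested in ceres-1, 20.9% lay below CRD1, against 6.92% of the 14453 tested in ceres-2. The fall of CRD1 in ceres-2 was 1.28-fold, smaller than the 1.57-fold fall of GUN5, and it would not pass a minimum of 1.5-fold.

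None of the protochlorophyllide oxidoreductase genes was called, and PORA and PORB lay above 0 in RNA and footprints of both mutants. PORA, the form that accumulates in dark-grown seedlings, had footprints at 0.11 in ceres-1 and 0.46 in ceres-2 by the authors' deposited table (adjusted p-values of 0.949 and 0.288). PORB, a main form in green tissue, had footprints at 0.097 in ceres-1 and 0.30 in ceres-2 by the authors' deposited table (adjusted p-values of 0.914 and 0.0596), the value nearest to the threshold among the genes not called. In ceres-2 PORA and PORB were the highest of the 10 genes in footprints and in RNA alike, with RNA at 0.36 and 0.30 by the authors' deposited table. PORC, the form expressed in light-grown mature tissue, stayed within 0.03 of 0 in RNA and footprints of both mutants. Its footprints were at 0.011 in ceres-1 and -0.028 in ceres-2 by the authors' deposited table, and its RNA at -0.0079 and -0.0098.

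Gene copies could share reads, and the longest identical runs are shown because footprints that fall within them cannot be assigned to 1 gene by sequence. They were found in the RefSeq coding sequences of TAIR10.1 and each has 44 bases, with capitals marking the start codon where it is included.
PORA and PORB: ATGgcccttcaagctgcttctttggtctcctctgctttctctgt
CHLI1 and CHLI2: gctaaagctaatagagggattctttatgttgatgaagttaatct
The PORA and PORB run begins at the start codon of both genes, while the other begins at coding base 643 of CHLI1 and 625 of CHLI2. Coding sequences were 83.3% identical between PORA and PORB and 81.8% between CHLI1 and CHLI2. Of windows of 24 bases, 26 of 1195 in PORA occur in PORB and 29 of 1252 in CHLI1 occur in CHLI2, 2.18% and 2.32%. PORC shared no such window with either, and GUN5 and CRD1 shared none with any other coding sequence searched. That search used the longest coding sequence of each gene on the numbered chromosomes, where it begins with ATG. Other transcripts and other sequences were not covered. The treatment of reads with several matches is not given here, and leaders and trailers were not searched.

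Efficiency was called at none of the 10 genes. The authors' deposited table calls 0 of the 10 in ceres-1, where it calls 0.107% of 12120 genes, and 0 of the 10 in ceres-2, where it calls 0.041% of 12188, without unadjusted p-values for either. An efficiency adjusted p above 0.99 was held by 6.08% of tested genes in ceres-1 and 40.0% in ceres-2. That adjusted p is not read as a test of the difference, and its absence of calls does not show that efficiency was unchanged. GUN5 had the lowest footprint minus RNA difference in each mutant, -0.31 in ceres-1 and -0.58 in ceres-2, from values of the authors' deposited table. CRD1 was next, at -0.24 and -0.36, followed by CHLD at -0.19 and -0.25. The efficiency column of the authors' deposited table itself holds -0.27 and -0.66 for GUN5 (adjusted p-values of 0.468 and 0.331), and -0.16 and -0.36 for CRD1 (adjusted p-values of 0.707 and 0.80). Of the tested genes in ceres-2, 2.43% lay below GUN5 in this difference and 9.99% below CRD1. PORB and PORC were within 0.02 of 0 in each mutant, so their footprints followed their RNA to within that margin.

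Over all 10 genes the medians lay near 0, and their sign depended on which genes were included. Footprint medians over the 10 genes were 0.042 in ceres-1, with 4 below 0, and -0.032 in ceres-2, with 7 below 0, against 0.0064 and 5.49e-04 over all genes tested. The efficiency differences had medians of 0.0072 and 0.0016, each with 5 of 10 below 0, against 1.11e-04 and -0.0097 over all genes tested. Leaving out CHLI1, CHLI2, PORA, PORB and PORC removed the CHLI subunit and the whole oxidoreductase step. The 5 genes left (GUN5, GUN4, CHLD, CHLM and CRD1) had footprint medians of -0.14 in ceres-1 and -0.20 in ceres-2. Their efficiency medians were -0.19 and -0.25. These medians hide the order by gene, since GUN5, CRD1 and CHLD lay at the low end of efficiency in each mutant. Across the 10 genes, footprint and RNA changes had a Pearson r of 0.24 in ceres-1 and 0.62 in ceres-2 (Spearman rho 0.21 and 0.44). Over the genes tested for efficiency, Pearson r was 0.016 and 0.18 (Spearman rho -0.047 and 0.061). Whether the 10 genes differ from the rest in this was not tested. Genes of the same libraries are not independent replicates, and these are descriptions.

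**Figure D2:**
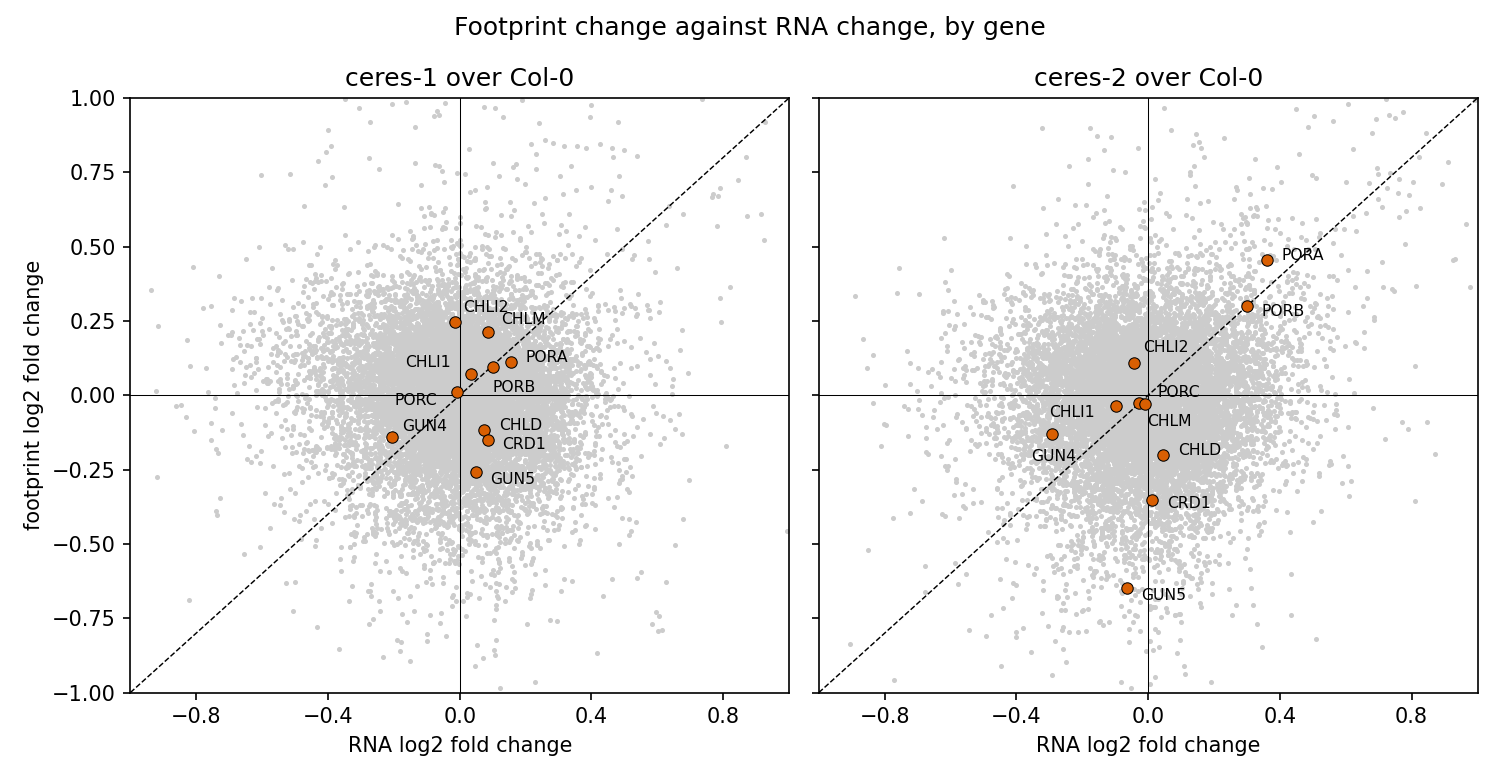
Footprint log2 fold change (vertical) against RNA log2 fold change (horizontal) of each gene in ceres-1 (left) and ceres-2 (right) over Col-0, from the authors' deposited table; orange points are the 10 chlorophyll synthesis genes, grey points the genes tested for efficiency (12120 and 12188, of which 46 and 63 lie outside the axes) and the dashed line marks equal change. In ceres-2 PORA and PORB lie near the line at the upper right, while GUN5, at a footprint value of -0.65 and an RNA value of -0.065, and CRD1 lie below it.

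The rest of the pathway was read from a list of 53 other tetrapyrrole genes grouped by role. In RNA the authors' deposited table calls 0 of 53 in ceres-1 and 0 of the 49 with an adjusted p in ceres-2, against 0.0249% and 0.137% of all genes tested. In footprints it calls 1 of 42 as higher and 0 as lower in ceres-1, where 0.351% of all genes tested are called higher, and 0 of 46 as higher and 3 as lower in ceres-2, where 1.15% of all genes tested are called lower. Efficiency was called at 0 of 45 in each mutant, against 0.107% of all genes tested in ceres-1 and 0.041% in ceres-2. Footprint medians of the listed genes with an adjusted p were 0.0024 in ceres-1 (42 genes) and -0.018 in ceres-2 (46 genes), against 0.0064 and 5.49e-04 over all genes tested.

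Among 8 further genes that act in chlorophyll synthesis itself, footprints of LIL3:2 and CHLP fell in ceres-2. LIL3:2 (AT5G47110), a light-harvesting-like membrane protein that stabilises geranylgeranyl reductase, was at -0.56 by the authors' deposited table (with an adjusted p of 1.43e-04), against -0.19 in ceres-1 (adjusted p = 0.687). CHLP (AT1G74470), the geranylgeranyl reductase that makes the phytyl tail of chlorophyll, was at -0.51 in ceres-2 by the authors' deposited table (with an adjusted p of 0.00435), against -0.10 in ceres-1 (adjusted p = 0.898). RNA of LIL3:2 was at 0.086 in ceres-1 and 0.045 in ceres-2 by the authors' deposited table, while RNA of CHLP was at -0.10 and -0.25. LIL3:1 (AT4G17600), the relative of LIL3:2, was at 0.14 and 0.12 in footprints by the authors' deposited table (adjusted p-values of 0.823 and 0.872).

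DVR (AT5G18660), the reductase that turns divinyl into monovinyl pigments, was the gene called higher. Its footprints rose by 0.51 on the log2 scale in ceres-1 by the authors' deposited table (with an adjusted p of 0.0416), and they were at 0.34 in ceres-2 (adjusted p = 0.105). Its RNA was at -0.0073 and -0.17 by the authors' deposited table, which made footprints minus RNA 0.52 in ceres-1 and 0.51 in ceres-2. The efficiency column of the authors' deposited table holds 0.49 and 0.35 for DVR (adjusted p-values of 0.377 and 0.820). CPP1 (AT5G23040), a chaperone-like protein that stabilises the oxidoreductases, was not called, at -0.46 and -0.33 in footprints by the authors' deposited table (adjusted p-values of 0.0730 and 0.154). The cyclase subunit LCAA (AT5G58250), chlorophyll synthase CHLG (AT3G51820) and chlorophyllide a oxygenase CAO (AT1G44446) lay between -0.21 and 0.056 in footprints by the authors' deposited table, with no call.

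Of 17 genes upstream of the magnesium branch, 14 had a footprint adjusted p in each mutant and none was called. Over all genes tested, footprints were called at 0.642% in ceres-1 and 1.88% in ceres-2. The lowest of the 14 was HEMA1 (AT1G58290), the main glutamyl-tRNA reductase and the entry step of the pathway, at -0.36 in ceres-1 and -0.65 in ceres-2 by the authors' deposited table (adjusted p-values of 0.164 and 0.193). HEMA1 had nearly the same footprint log2 fold change in ceres-2 as GUN5, with 0.955% of tested genes below it, yet its adjusted p was far higher. A fold change of this size was thus called at GUN5 and not at HEMA1. Among 11 genes of chlorophyll b reduction and breakdown, the chlorophyllase CLH1 (AT1G19670) fell in ceres-2 footprints, by 0.62 on the log2 scale by the authors' deposited table (with an adjusted p of 0.0280). RNA of CLH1 was at -0.45 in the same mutant and -0.14 in ceres-1 by the authors' deposited table, without a call, whereas RNA of GUN5 and CRD1 lay near 0.

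**Figure D3:**
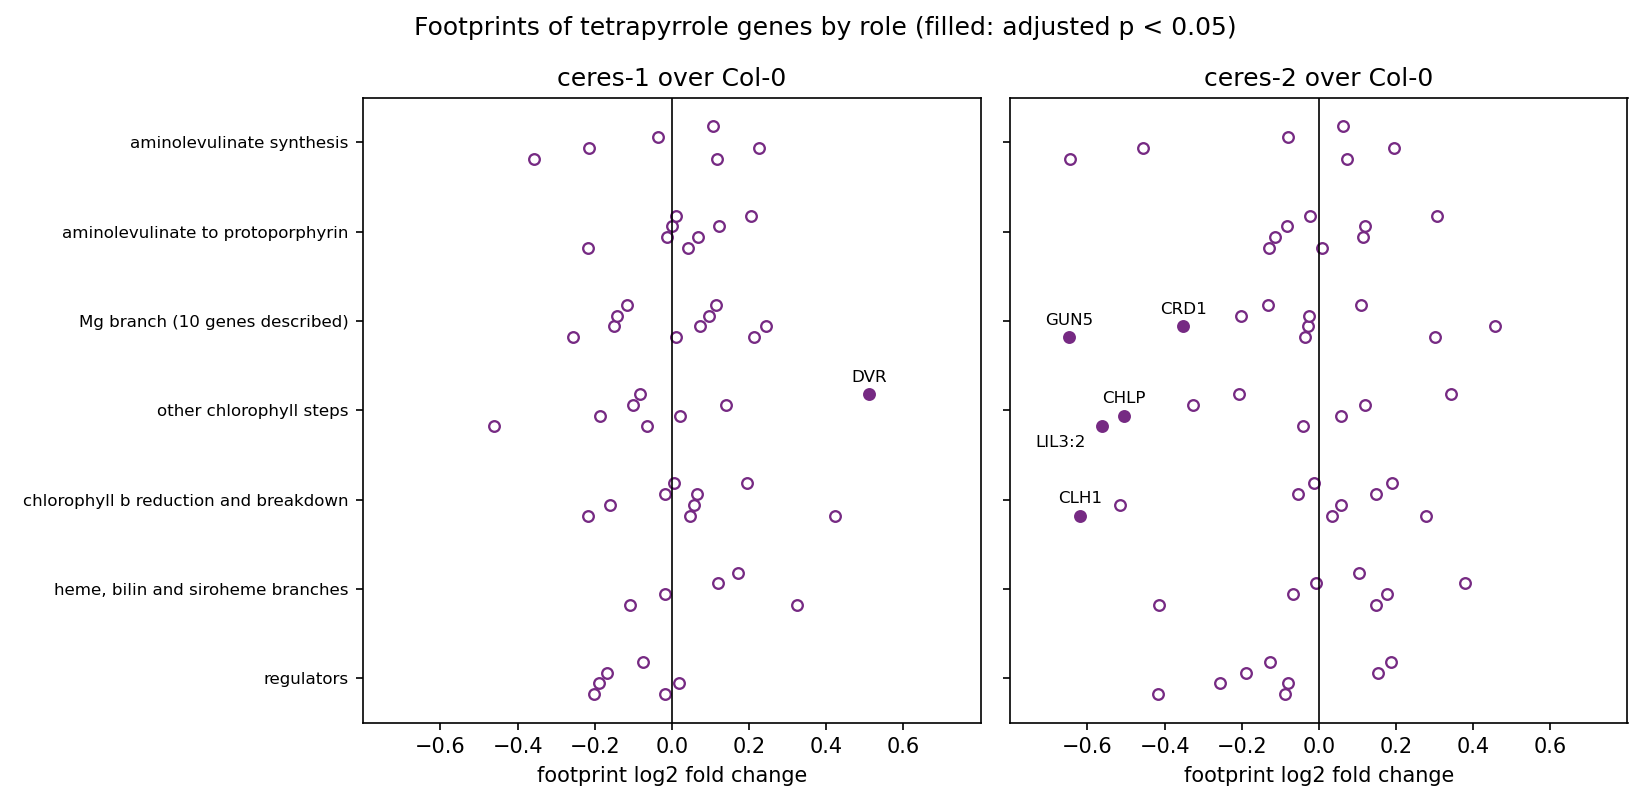
Footprint log2 fold change in ceres-1 (left) and ceres-2 (right) over Col-0, from the authors' deposited table, for the tetrapyrrole genes with a footprint adjusted p (52 and 56 of 63), by role; each point is a gene, the vertical offset only separates points, and filled points have an adjusted p below 0.05. GUN5, CRD1, LIL3:2, CHLP and CLH1 lie between -0.65 and -0.35 in ceres-2, and DVR at 0.51 is the gene called in ceres-1.

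The genes with the most similar values were sought for the called members, as the 3 with the smallest Euclidean distance over 4 log2 fold changes (RNA and footprints of both mutants) among 9966 genes with a footprint adjusted p in both mutants. For GUN5 these were ATNTT2 (AT1G15500), an ATP/ADP transporter gene, AT1G49580, a gene of the calcium-dependent protein kinase family, and CAB3 (AT1G29910), a light-harvesting gene with near-identical copies that can share reads. Their footprints in ceres-2 were at -0.60, -0.61 and -0.74 by the authors' deposited table (adjusted p-values of 4.63e-05, 0.252 and 0.0890), against -0.65 for GUN5. For CRD1 they were LHCA1 (AT3G54890), a light-harvesting protein of photosystem I, HINT3 (AT5G48545) and PAT1 (AT5G48150), at -0.39, -0.38 and -0.36 in ceres-2 footprints by the authors' deposited table. Of these 3, LHCA1 was called (adjusted p = 0.00508) and HINT3 and PAT1 were not (adjusted p = 0.773 and 0.324).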

How the data were processed

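Per the labels' protocols, a kit for ribosome profiling was used for the libraries. TopHat2 2.1.0, featureCounts 1.6.2 and DESeq2 are named in the submitters' processing notes. Not given in the sources used here are genome build, annotation, strand setting and the handling of reads with several matches. The authors deposited log2 fold changes and adjusted p-values of each mutant over Col-0 for RNA, footprints and efficiency, in 12 columns and per the file headers, with no value per library. Depth is therefore unknown, no model was refitted, and the authors' adjusted p-values were used over all genes with a threshold of 0.05.

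Efficiency changes were computed as footprint minus RNA log2 fold change, because the deposited efficiency column followed the footprint column (Pearson r of 0.992 in each mutant). Members, gene lists and tests were chosen with earlier results of these data known. Genes named were the 10 members, CERES, listed genes that were called, and the 3 genes nearest to each called member. The further listed genes (LIL3:1, CPP1, LCAA, CHLG, CAO and HEMA1), and those of the closing observations, were named after their values were seen. All 63 listed identifiers matched RefSeq TAIR10.1, which supplied transcripts by identifier and no coordinates. Counting and distance steps were tested on simulated data. Python 3.11.15 and pandas 2.3.3 were used.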

Additional observations from a re-analysis of the deposited data

How the results depend on the processing

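No paired analysis was possible because single libraries have no values in the deposited table, and for the same reason no replicate could be left out. With an adjusted p threshold of 0.01 or 0.1 the number of members called was the same in all 6 comparisons, except that a threshold of 0.1 added PORB to ceres-2 footprints (3 called against 2). A minimum of 1.5-fold left 1 called gene in ceres-2 footprints, GUN5, because the change of CRD1 is smaller. The share of all genes called is known here only at an adjusted p below 0.05 (1.88% in ceres-2 footprints). It was not computed for the other thresholds or for the minimum fold. Whether the members stand out from all genes at those settings was therefore not tested. Member medians lie close to 0 and changed sign easily. With means in place of medians they were 0.018 in ceres-2 RNA, -0.027 in ceres-1 efficiency and -0.074 in ceres-2 efficiency. Without CHLI1, CHLI2, PORA, PORB and PORC, 5 genes and no oxidoreductase were left. Footprint medians of these 5 were -0.14 in ceres-1 and -0.20 in ceres-2, and efficiency medians -0.19 and -0.25. With the deposited efficiency column the ceres-2 efficiency median was -0.041. All other alternatives kept the sign and moved a median by less than 0.1. Since the depth is unknown, differences as small as these medians may not be detectable.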

Other observations

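The 9 genes of the heme, bilin and siroheme branches and the 8 regulators of the list had no call in RNA, footprints or efficiency in either mutant among those with an adjusted p, by the authors' deposited table. Over all genes tested, the largest share called in any of these comparisons was 1.88%, in ceres-2 footprints. An absence of calls among so few genes therefore says little about them. HO2 (AT2G26550), a heme oxygenase-like gene, had footprints at 0.32 in ceres-1 and 0.38 in ceres-2 by the authors' deposited table, with RNA at -0.17 and -0.39, a difference of 0.49 and 0.77. The efficiency column of the authors' deposited table holds 0.31 and 0.37 for HO2 (adjusted p-values of 0.60 and 0.570). The transcription factor genes GLK1 (AT2G20570) and GLK2 (AT5G44190), known activators of GUN4, CRD1 and other chlorophyll genes, were at -0.15 and -0.10 in ceres-1 RNA and -0.26 and -0.31 in ceres-2 RNA by the authors' deposited table. HY5 (AT5G11260), a light signalling factor, had RNA at -0.50 in ceres-1 and -0.63 in ceres-2 by the authors' deposited table, with an adjusted p of 0.9998 and 0.9999. NYC1 (AT4G13250), a chlorophyll b reductase, had footprints at 0.42 and 0.28 by the authors' deposited table (adjusted p-values of 0.162 and 0.531), and SGRL (AT1G44000), a magnesium-dechelatase relative, at 0.0055 and -0.52 (adjusted p = 0.999 and 0.125).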
